A study of Mus musculus with 6 samples.

Results

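The cluster of miR-322 and its neighbours is a group of miRNA hairpins on the mouse X chromosome that are read from one strand of DNA. Its members here were the mature strands of mmu-miR-322, mmu-miR-503, mmu-miR-351, mmu-miR-542, mmu-miR-450a and mmu-miR-450b, chosen by name, with both arms of each hairpin where the table held them. These 6 names took in 11 of the 535 mature miRNAs of the table. mmu-miR-542-5p and mmu-miR-450a-2-3p, the remaining arms of these hairpins, were not analysed here.

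Small RNA was sequenced from kidneys of wild-type CD1 mouse embryos at embryonic day 15.5. One group of 3 libraries came from nephron progenitors, the mesenchymal cells that build the nephron, which were enriched by limited digestion of whole kidneys and magnetic depletion of cells carrying CD140a, CD105, Epcam or Ter119. The other group of 3 libraries, called whole kidney here, came from what remained of the kidneys after that digestion and not from untouched kidneys. Samples of both groups came from 3 litters that supplied 3 biological replicates, and which libraries share a litter is not stated. Total counts with one value per mature miRNA were 393951, 436112 and 333850 for nephron progenitors (libraries named MNP1, MNP2, MNP6) and 349241, 360221 and 355848 for whole kidney (MWK1, MWK2, MWK6). Values per library are given in this order throughout.

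A polycistron is transcribed as one long RNA from which the enzyme Drosha cuts several hairpins. Dicer trims each hairpin to a duplex of a 5p and a 3p strand, and in most duplexes one strand is kept on an Argonaute protein while the other is degraded. The seed, bases 2 to 8 of the mature strand, selects most targets; miR-322-5p shares its seed with the miR-15 and miR-16 family, which represses cyclins and other genes of the cell cycle, and the cluster is known from skeletal muscle differentiation. The question put to the counts was whether strands of this cluster differ between nephron progenitors and whole kidney by the same amount. Whether all its hairpins lie on one transcript in these cells was not tested.

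The cluster lies at chrX:53047997-53054349 of mm10, on the minus strand, and spans 6353 bp with 7 hairpins, since 2 hairpins give the same miR-450a-5p. In the direction of transcription the order is mir-322, mir-503, mir-351, mir-542, mir-450a-2, mir-450a-1 and mir-450b, and the longest gap, 3767 bp, lies between mir-351 and mir-542. The coordinates of all 7 in the table equal those of miRNA genes in GENCODE vM21. RefSeq places mir-322, mir-503 and mir-351 inside the long non-coding RNA gene C430049B03Rik (chrX:53053112-53057190), whereas GENCODE draws that gene only upstream of mir-322 and puts the lincRNA Gm28730 (chrX:53051194-53053159) in the gap. The protein-coding genes on either side were Hprt, on the plus strand, and Plac1, on the minus strand. Among rows of the table with coordinates, no other miRNA lay within 50 kb, and the nearest, mir-106a, was 305430 bp away; 33 rows had no coordinates and were not placed.

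All 11 strands had a mature sequence in RefSeq (GRCm38.p6), and they carried 10 different seeds. The 4 sequences shown first are those whose changes or partners the results below turn on; each is written 5′ to 3′ with the seed in capitals.
mmu-miR-322-5p: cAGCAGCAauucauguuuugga
mmu-miR-322-3p: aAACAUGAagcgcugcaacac
mmu-miR-450b-5p: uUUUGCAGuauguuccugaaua
mmu-miR-450b-3p: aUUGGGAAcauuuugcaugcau
The seed of miR-450b-3p was shared with miR-450a-1-3p, the one pair of strands in the cluster with equal bases at 2 to 8.

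Nephron progenitors held less of the cluster than whole kidney. Levels are in CPM, counts per 1000000 of a library size scaled by TMM, the trimmed mean of M-values. Summed over its strands, the level was 7940, 9984 and 11639 CPM in nephron progenitors and 15628, 15366 and 14606 CPM in whole kidney. The 3 nephron progenitor libraries were all below the 3 whole kidney libraries and were spread more widely among themselves. The mean in nephron progenitors was 64.8% of that in whole kidney, a log2 ratio of -0.63 (two-sided exact permutation p = 0.1, which 3 libraries against 3 cannot go below). The cluster took 0.819%, 1.05% and 1.33% of all counts in the nephron progenitor libraries and 1.49%, 1.35% and 1.41% in the whole kidney libraries. In such bulk samples fewer cells that express a miRNA and less of it per cell cannot be told apart. Cell isolation and the RNA kit (miRNeasy Micro or Mini) also went with the groups and cannot be told apart from them.

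All 11 strands passed the filter on low counts, a sum above 10. Of these, 5 were lower in nephron progenitors past the threshold (edgeR quasi-likelihood test, Benjamini-Hochberg adjusted p of 0.05 or less over 525 miRNAs), against 36.6% of all miRNAs called in either direction and 17.1% called lower. The number higher was 0, as it was with edgeR at an unadjusted p under 0.05, with DESeq2 and with limma. The 5 were miR-322-5p, miR-450b-5p, miR-503-5p, miR-542-3p and miR-351-5p. The fitted log2 fold change was below 0 for each of the 11, with a median of -0.70, where the median over all 525 was -0.01. The sign changed for the rare miR-450a-1-3p without MWK2 (log2 fold change 0.10). CPM values of the 2 groups did not overlap for 7 of the 11 strands, compared with 46.7% of all miRNAs tested.

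miR-322-5p, the strand with the seed of the miR-15 and miR-16 family, had 24, 30 and 17 counts in nephron progenitors against 91, 104 and 73 in whole kidney, or 59.1, 65.3 and 44.7 CPM against 274, 327 and 213 CPM. Each nephron progenitor library was far below each whole kidney library. The log2 fold change was -2.25 ± 0.27 (SE, n = 3 per group; edgeR, Benjamini-Hochberg adjusted p = 2.7e-05), the largest fall of the 11 strands. Its partner miR-322-3p, cut from the same hairpin, stood at 1413, 1930 and 2270 CPM in nephron progenitors and 2303, 2195 and 2178 CPM in whole kidney. Here MNP6 lay among the whole kidney libraries, MNP1 lay well below them, and the groups overlapped. The log2 fold change of miR-322-3p was -0.25 ± 0.19 (SE, n = 3 per group; edgeR, Benjamini-Hochberg adjusted p = 0.357). It ran from -0.45 without MNP6 (adjusted p = 0.0636) to -0.078 without MNP1, and was -0.035 with library totals.

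miR-450b-5p, from the hairpin at the other end of the cluster, had the next largest fall. It had 28, 31 and 38 counts in nephron progenitors against 80, 72 and 71 counts in whole kidney, so that the groups were well apart. Its level went from 225 ± 16.7 CPM in whole kidney to 78.8 ± 18.3 CPM in nephron progenitors (mean ± SD, n = 3), a log2 fold change of -1.52 ± 0.25 (SE; edgeR, Benjamini-Hochberg adjusted p = 0.00034). Its partner miR-450b-3p had 18, 20 and 20 counts in nephron progenitors against 22, 27 and 17 in whole kidney, and the groups overlapped. The change of miR-450b-3p was -0.51 ± 0.29 (log2, SE, n = 3 per group; edgeR, Benjamini-Hochberg adjusted p = 0.217). It was -0.68 to -0.32 without each library in turn, and -0.81 in the 4 numbered libraries with a replicate block (adjusted p = 0.0537).

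miR-503-5p, whose seed is close to that of miR-322-5p but not equal to it, stood at 303, 521 and 397 CPM in nephron progenitors and at 812, 856 and 730 CPM in whole kidney. The 3 nephron progenitor libraries were all lower, and the log2 fold change was -0.97 ± 0.22 (SE, n = 3 per group; edgeR, Benjamini-Hochberg adjusted p = 0.0037), which missed the threshold in the 4 numbered libraries without a block (adjusted p = 0.0606). miR-542-3p, from the middle of the cluster, stood at 901, 1120 and 1093 CPM against 1765, 1735 and 1652 CPM. It too was lower in each nephron progenitor library, by a log2 fold change of -0.73 ± 0.17 (SE, n = 3 per group; edgeR, Benjamini-Hochberg adjusted p = 0.0042).

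miR-351-5p, which carries the seed of the miR-125 family, was the most abundant strand of the cluster in all 6 libraries. It stood at 3779, 4483 and 6233 CPM in nephron progenitors and at 8053, 7819 and 7662 CPM in whole kidney. MNP6 was nearest to whole kidney, and the groups did not overlap. Its log2 fold change of -0.70 ± 0.18 (SE, n = 3 per group) passed the threshold (edgeR, Benjamini-Hochberg adjusted p = 0.0082), but not when MWK1 was left out (adjusted p = 0.0548) or when libraries were scaled by their totals alone (adjusted p = 0.0824); over all alternatives the adjusted p of edgeR, DESeq2 or limma ran from 0.00032 to 0.0824.

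miR-450a-5p, made from 2 hairpins, stood at 1322, 1699 and 1388 CPM in nephron progenitors and 2039, 2022 and 1839 CPM in whole kidney. The groups did not overlap, but the log2 fold change of -0.42 ± 0.17 (SE, n = 3 per group) missed the threshold (edgeR, Benjamini-Hochberg adjusted p = 0.0727). The remaining strands were rare. miR-503-3p had 10 to 16 counts per library and miR-351-3p 7 to 11, and neither passed the threshold. miR-450a-1-3p had 3, 3 and 2 counts in nephron progenitors against 2, 9 and 2 in whole kidney, which is too few for a fold change.

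**Figure D1:**
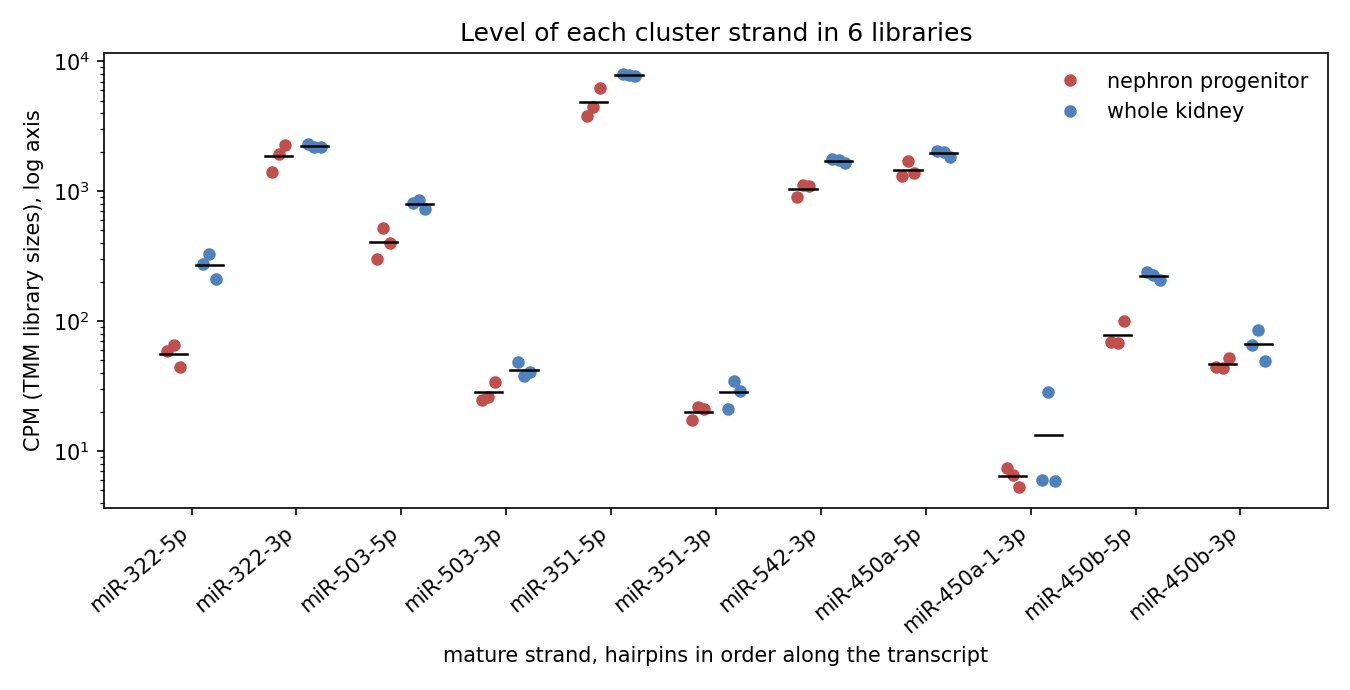
Each point is the level of one strand in one library, in CPM on a log axis, with nephron progenitors in red and whole kidney in blue, and black lines mark the mean of 3 libraries. The 2 groups stand clearly apart for miR-322-5p and miR-450b-5p, and overlap for miR-322-3p and miR-450b-3p.

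In whole kidney the levels fell in the order miR-351-5p (7845 ± 197 CPM), miR-322-3p (2225 ± 68.3), miR-450a-5p (1966 ± 111), miR-542-3p (1717 ± 58.5), miR-503-5p (799 ± 64.3), miR-322-5p (271 ± 57.2) and miR-450b-5p (225 ± 16.7; mean ± SD, n = 3), with the others below 100 CPM. Of these neighbours, miR-322-5p and miR-450b-5p differed by less than their spread. In nephron progenitors miR-351-5p was again highest (4832 ± 1264 CPM; mean ± SD, n = 3), while miR-322-5p (56.4 ± 10.6) came after miR-450b-5p (78.8 ± 18.3) and overlapped with miR-450b-3p (46.8 ± 4.99). Levels of different strands also carry any difference in adapter ligation between sequences, which was not measured here.

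Summed over the strands in the table, which for mmu-miR-542 is the 3p arm alone and for mmu-miR-450a lacks one 3p strand, each of the 6 names was lower in all nephron progenitor libraries than in any whole kidney library. CPM values of the 2 groups did not overlap, in either direction, for 46.7% of all single miRNAs tested. The share among summed names of other loci is not given here. Whether these 6 falls differ from one another was not tested. The log2 ratio of group means was -0.37 for mmu-miR-322, -0.95 for mmu-miR-503, -0.70 for mmu-miR-351, -0.73 for mmu-miR-542, -0.42 for mmu-miR-450a and -1.22 for mmu-miR-450b, each at an exact permutation p = 0.1. In the order of transcription these values neither rose nor fell steadily. The largest fall was that of mmu-miR-450b at one end of the cluster. The smallest, that of mmu-miR-322 at the other end, was close to that of mmu-miR-450a. The small ratio for mmu-miR-322 reflected its 3p strand, which held most of its counts.

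**Figure D2:**
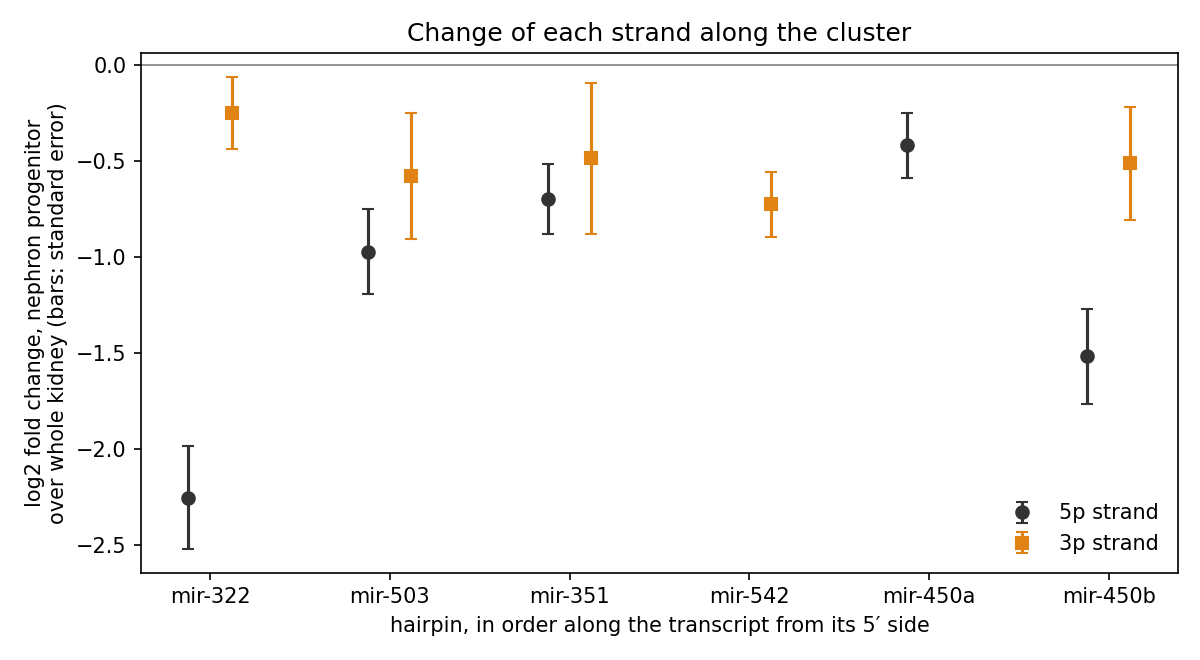
Log2 fold change of nephron progenitors over whole kidney for the 5p strands (circles) and 3p strands (squares), with hairpins in the order of transcription and bars of 1 standard error; miR-450a-1-3p, with 3 counts or fewer in each nephron progenitor library, is not drawn. miR-322-5p at -2.25 and miR-450b-5p at -1.52 lie below the other 8 strands drawn.

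To compare strands without any scaling of the libraries, the fit was repeated with miR-322-5p as the reference in each library. Against it, 8 of the other 10 strands were higher in nephron progenitors past the threshold, but 86.6% of the other 524 miRNAs passed it as well, in one direction or the other, so this count is not particular to the cluster. miR-322-3p rose by 2.04 ± 0.34 relative to its own partner (log2, SE, n = 3 per group; edgeR, Benjamini-Hochberg adjusted p = 0.00033), and miR-503-5p by 1.28 ± 0.28 (edgeR, Benjamini-Hochberg adjusted p = 0.0020). miR-450b-5p came nearest to the reference, with 0.77 ± 0.34 (edgeR, Benjamini-Hochberg adjusted p = 0.0530), and it passed the threshold without MNP1, without MNP2 and with more than 10 counts required in every library.

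miR-322-5p held at most 104 counts in a library, so the abundant miR-351-5p was taken as a second reference after the data had been seen. Against miR-351-5p, 2 of the other 10 strands passed the threshold, while 40.1% of the other 524 miRNAs did. These were miR-322-5p at -1.49 ± 0.35 (log2, SE, n = 3 per group; edgeR, Benjamini-Hochberg adjusted p = 0.0047) and miR-450b-5p at -0.80 ± 0.28 (adjusted p = 0.0380). Per library, the log2 ratio of miR-322-5p to miR-351-5p was -5.97, -6.08 and -7.08 in nephron progenitors and -4.87, -4.57 and -5.16 in whole kidney, so that all nephron progenitor libraries were lower. miR-542-3p, at 0.01 ± 0.24, and miR-503-5p, at -0.23 ± 0.28, were within 1 SE of 0 relative to miR-351-5p (log2, n = 3 per group). miR-322-5p passed this threshold whichever library was left out, whereas miR-450b-5p missed it without MNP2, MWK1, MWK2 or MWK6, leaving 1 strand each time. Without MNP6 the count was 4, with miR-322-3p and miR-450a-5p higher relative to miR-351-5p.

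As a share of the cluster's own counts, miR-322-3p made up 17.8%, 19.3% and 19.5% in nephron progenitors and 14.7%, 14.3% and 14.9% in whole kidney. The nephron progenitor libraries were all higher in this share (two-sided exact permutation p = 0.1). miR-322-5p and miR-450b-5p made up 0.594% ± 0.188 and 0.801% ± 0.108 of the cluster's counts in nephron progenitors against 1.78% ± 0.337 and 1.48% ± 0.0603 in whole kidney (mean ± SD over 3 libraries; exact permutation p = 0.1 for each). For the other 8 strands the shares of the 2 groups overlapped, and miR-542-3p made up 11.3%, 11.2% and 9.39% in nephron progenitors beside 11.3% in each whole kidney library. By another measure, CPM, the 2 groups did not overlap for 46.7% of all single miRNAs tested. Shares within other clusters are not given here. These shares are parts of one whole, so a lower share of some strands means a higher share of others.

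Strands of one hairpin are cut from the same molecule, and their ratio does not depend on the scaling of libraries. The 3p strand took 96.0%, 96.7% and 98.1% of the counts of mir-322 in nephron progenitors and 89.4%, 87.0% and 91.1% in whole kidney. All nephron progenitor libraries were above all whole kidney libraries, and the lowest bound of the 95% Wilson intervals in nephron progenitors, 94.1%, was above the highest bound in whole kidney, 92.9%. The means differed by 7.77 percentage points (two-sided exact permutation p = 0.1). The hairpin is shown whole from RefSeq (GRCm38.p6, minus strand, 5′ to 3′), with the 5p strand and then the 3p strand in capitals, since the 2 arms moved by unequal amounts.
mmu-mir-322, chrX:53054255-53054349: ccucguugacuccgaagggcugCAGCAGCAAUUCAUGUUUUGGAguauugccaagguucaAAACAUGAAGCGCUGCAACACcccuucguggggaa

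mir-450b went the same way from a lower share. Its 3p strand took 39.1%, 39.2% and 34.5% of the counts in nephron progenitors against 21.6%, 27.3% and 19.3% in whole kidney. The nephron progenitor libraries were again all higher, by 14.9 percentage points between the means (two-sided exact permutation p = 0.1), although the Wilson intervals of single libraries, such as 23.6% to 47.3% in MNP6 and 19.5% to 36.8% in MWK2, overlapped at these low counts. The reads carried no molecular identifiers, so the intervals cover counting error only. The hairpin is shown in the same way.
mmu-mir-450b, chrX:53047997-53048078: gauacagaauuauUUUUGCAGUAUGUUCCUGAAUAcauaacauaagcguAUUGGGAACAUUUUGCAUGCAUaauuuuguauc

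The 3 other names with both arms counted had the 5p arm in excess in both groups. For mir-450a the 5p strand comes from both hairpins and the 3p strand from mir-450a-1 alone, so its share is not that of one molecule. The 3p strand of mir-503 took 6.74% ± 1.71 in nephron progenitors and 5.04% ± 0.721 in whole kidney (mean ± SD over 3 libraries; exact permutation p = 0.3), that of mir-351 0.425% ± 0.0780 and 0.360% ± 0.0917 (exact p = 0.5), and that of mir-450a 0.439% ± 0.101 and 0.664% ± 0.622 (exact p = 1). The groups overlapped in each, though for mir-503 no longer without MNP2, where the difference was 2.68 percentage points (exact p = 0.1). Among the 143 hairpins of the table with both arms above 10 counts in sum, the shares did not overlap between groups in 31.5%, and the 3p share was higher in nephron progenitors in 78 of the 143. By size of the difference mir-450b ranked 13 and mir-322 ranked 34 of the 143, where the median size was 1.97 percentage points. Percentage points move little near either end of the scale, where mir-322 lay, so these ranks do not order hairpins by the ratio of their strands. Hairpins with few counts were ranked too, such as mir-223 at rank 1, whose 5p strand had 0 counts in each whole kidney library.

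**Figure D3:**
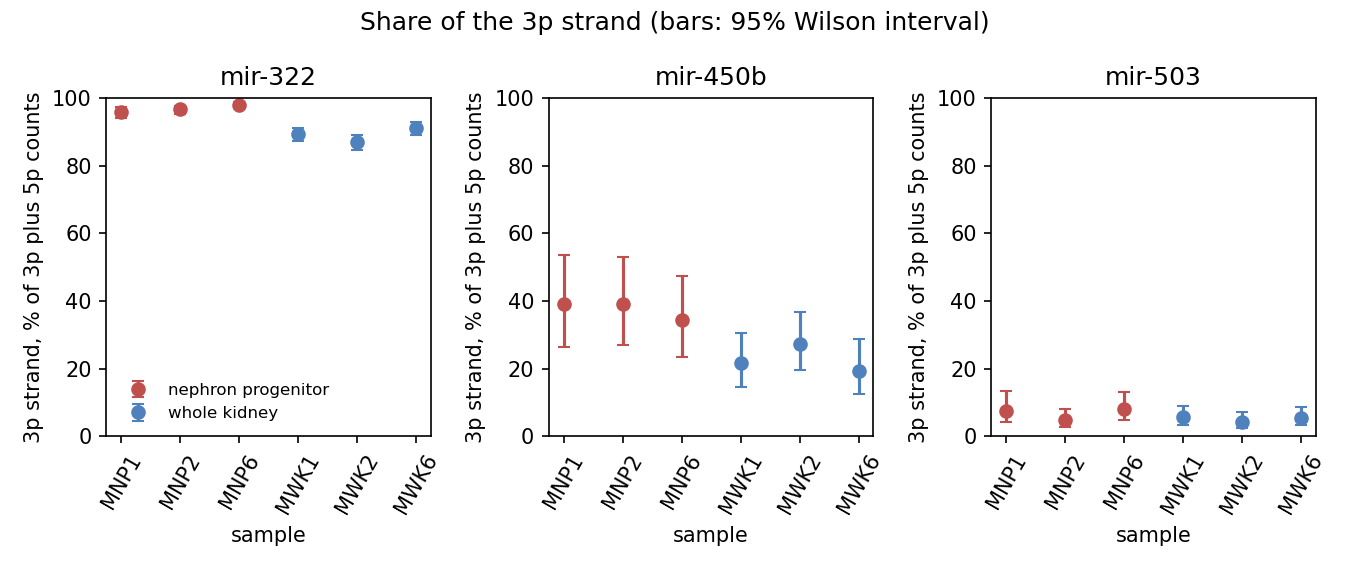
Share of the 3p strand in the counts of mir-322, mir-450b and mir-503 in each library, in percent, with nephron progenitors in red, whole kidney in blue and bars of the 95% Wilson interval. For mir-322 and mir-450b the 3 nephron progenitor libraries are above the 3 whole kidney libraries, and for mir-503 the groups overlap.

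miRNAs of other loci that share a seed with the cluster were compared as well. With the seed of miR-322-5p there were 5, all of the miR-15 and miR-16 family, and with that of miR-351-5p there were 2, both of the miR-125 family. No other tested miRNA shared a seed with the remaining strands. Their sequences from RefSeq (GRCm38.p6) are listed with bases 2 to 8 in capitals, beside miR-351-5p and miR-503-5p; the seed of miR-503-5p ends in another base than that of miR-322-5p, whose sequence is given above.
mmu-miR-503-5p: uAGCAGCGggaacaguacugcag
mmu-miR-15a-5p: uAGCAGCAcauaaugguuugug
mmu-miR-15b-5p: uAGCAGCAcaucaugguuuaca
mmu-miR-16-5p: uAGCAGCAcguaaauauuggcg
mmu-miR-195a-5p: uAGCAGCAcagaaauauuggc
mmu-miR-497a-5p: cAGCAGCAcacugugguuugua
mmu-miR-351-5p: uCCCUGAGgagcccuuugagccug
mmu-miR-125a-5p: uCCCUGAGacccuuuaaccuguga
mmu-miR-125b-5p: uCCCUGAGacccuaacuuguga

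In the group of miR-322-5p all 5 had fitted log2 fold changes below 0, like miR-322-5p itself, and CPM values of the 2 groups did not overlap for 4 of them, all but miR-195a-5p (46.7% of all miRNAs tested). Of the 5, miR-16-5p was the most abundant, with 315, 259 and 152 CPM in nephron progenitors and 361, 406 and 318 CPM in whole kidney. MNP1 was just below MWK6, and the log2 fold change of -0.57 ± 0.26 (SE, n = 3 per group) missed the threshold (edgeR, Benjamini-Hochberg adjusted p = 0.116) except without MNP1 (adjusted p = 0.0148). This change was -0.80 without MNP1, -0.37 without MNP6 and -0.38 with library totals. miR-15b-5p fell by 0.72 ± 0.26 on the log2 scale (edgeR, Benjamini-Hochberg adjusted p = 0.0424), but it missed the threshold when any library other than MNP1 was left out and also with library totals, the DESeq2 test, rows summed or the numbered libraries alone, and its adjusted p ran from 0.0164 to 0.171 over the alternatives. miR-15a-5p stood at -0.22 ± 0.27 (edgeR, Benjamini-Hochberg adjusted p = 0.596), and at -0.022 with library totals. miR-497a-5p and miR-195a-5p had at most 10 counts in a library. miR-497a-5p was lower by a log2 fold change of -1.93 ± 0.61 (edgeR, Benjamini-Hochberg adjusted p = 0.0228), but missed the threshold without MNP6 (adjusted p = 0.0590) or MWK2 (adjusted p = 0.125), with the DESeq2 test (adjusted p = 0.0830), and in the 4 numbered libraries with a replicate block (adjusted p = 0.0790) or without one (adjusted p = 0.104). miR-195a-5p, at -1.57 ± 1.00, missed it with all 6 libraries (edgeR, Benjamini-Hochberg adjusted p = 0.265). The fit relative to miR-322-5p also covered these 5, but their values in it are not given here.

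The miR-125 family, known from the control of differentiation in many tissues, went the other way from miR-351-5p. miR-125b-5p stood at 6295, 8248 and 10819 CPM in nephron progenitors and at 2679, 2758 and 2805 CPM in whole kidney, so that each nephron progenitor library was well above whole kidney. Its log2 fold change was 1.62 ± 0.19 (SE, n = 3 per group; edgeR, Benjamini-Hochberg adjusted p = 2.7e-05). miR-125a-5p was higher by 0.51 ± 0.15 (edgeR, Benjamini-Hochberg adjusted p = 0.0157), though not past the threshold without MWK1 (adjusted p = 0.0660) or MWK2 (adjusted p = 0.0673), or in the 4 numbered libraries with a replicate block (adjusted p = 0.0597). In whole kidney miR-351-5p was thus the most abundant strand with this seed, and in nephron progenitors miR-125b-5p was.

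Among 278 miRNAs outside the cluster with a mean of 50 CPM or more, the one whose profile over the 6 libraries lay nearest to that of the summed cluster was miR-708-3p, with a root mean square distance of 0.11 in centred log2 CPM. It was followed by its partner miR-708-5p at 0.11, miR-211-5p at 0.13, miR-582-3p at 0.15 and miR-425-5p at 0.16, where the median distance was 0.51. Of the cluster's own strands miR-351-5p lay at 0.09 and miR-542-3p at 0.10, while miR-450b-5p lay at 0.43 and miR-322-5p at 0.82. The rare miR-450a-1-3p lay at 0.58, and the remaining strands ran from 0.13 (miR-503-3p) to 0.26 (miR-503-5p). The sum itself contains these strands, and miR-351-5p made up 48.7% ± 4.43 of its counts in nephron progenitors against 51.6% ± 0.793 in whole kidney (mean ± SD, n = 3).

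Of 43 other tested miRNAs that the table places on the X chromosome, 8 were lower in nephron progenitors past the threshold and 3 were higher, with a median log2 fold change of -0.14 (edgeR, Benjamini-Hochberg adjusted p of 0.05 or less). Of all miRNAs tested 17.1% were lower and 36.6% passed in either direction. Those lower on this chromosome were not all separate loci. They included strands of mir-106a, mir-18b, mir-20b and mir-363, whose hairpins lie together at chrX:52741693-52742567. The 2 with the largest fitted changes among those called on this chromosome were rare: miR-223-5p had 4, 8 and 7 counts in nephron progenitors and 0 in each whole kidney library, at least 1.68-fold higher with a floor of 3 counts per library, though not past the threshold in the 4 numbered libraries with a replicate block (adjusted p = 0.0850) or without one (adjusted p = 0.0682). miR-881-3p had 0 in each nephron progenitor library and 4, 5 and 5 counts in whole kidney, at least 1.94-fold lower on the same floor.

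Markers of other cell types moved with the groups as well, and their part in the changes of the cluster was not tested. All 5 epithelial miRNAs of the miR-200 family were lower in nephron progenitors, where they summed to 214, 366 and 86.7 CPM, against 23365, 24832 and 21253 CPM in whole kidney. miR-200a-3p was the most abundant of them, and miR-141-3p had 0 counts in each nephron progenitor library. Both endothelial markers, miR-126a-3p, the more abundant, and miR-126a-5p, were lower, with 419, 595 and 578 CPM in sum against 20132, 21311 and 18150 CPM. All 3 erythroid markers were lower, with 372, 266 and 171 CPM in sum against 1431, 1414 and 741 CPM. In each of these 3 lists the nephron progenitor libraries were all below whole kidney, and for epithelium and endothelium by far.

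For stroma, smooth muscle and pericytes, 2 of 5 markers were lower in nephron progenitors, miR-143-3p and miR-145a-5p. The others, miR-199a-5p, miR-199a-3p and miR-214-3p, had fitted log2 fold changes of 0.40, 0.23 and 0.17 that missed the threshold, with groups that overlapped. Without each library in turn, the change of miR-199a-5p ran from 0.10 to 0.62 and that of miR-199a-3p from 0.099 to 0.36. Without MNP1 both miR-199a-5p (adjusted p = 0.0019) and miR-199a-3p (adjusted p = 0.0386) were higher past the threshold, as was miR-199a-3p with library totals (edgeR, Benjamini-Hochberg adjusted p = 0.0477). The summed level of this list, most of it miR-143-3p, was 33782, 45277 and 46056 CPM in nephron progenitors and 73673, 85327 and 70886 CPM in whole kidney. The nephron progenitor libraries were all lower in this sum, which does not stand for the whole list. Of the 3 leukocyte markers 0 passed the threshold with edgeR, DESeq2 or limma, or at an unadjusted p under 0.05 with edgeR, although miR-142a-3p was higher past the threshold without MNP6 (edgeR, Benjamini-Hochberg adjusted p = 0.0114) and in the 4 numbered libraries with a replicate block (adjusted p = 0.0414) or without one (adjusted p = 0.0374). They stood at 113, 124 and 49.9 CPM in sum against 78.2, 78.7 and 61.3 CPM. Their list holds miR-223-3p but not its partner miR-223-5p, which was higher past the threshold except in the 4 numbered libraries, as given above. Of the 3 skeletal muscle markers 1 was higher in nephron progenitors, miR-206-3p, and the list summed to 300.4, 438 and 131 CPM against 66.2, 113 and 61.3 CPM.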

How the data were processed

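Small RNA libraries of 3 nephron progenitor and 3 whole kidney samples were prepared with the NEBNext small RNA kit. Adapter trimming (BBDuk), alignment to mm10 (Bowtie2 2.2.3, per the submitters' processing notes) and quantification of miRBase miRNAs (miRDeep2) were done by the authors. The deposited values are estimated counts without normalization, 1 row per mature miRNA and precursor; 3 of 792 rows held fractions, and all values were rounded. Columns MNP6 and MWK6 match no sample title, and were used in their groups without a replicate number.

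Where a mature name had several rows, its highest count in each library was kept, and a sum above 10 counts was required, which left 525 of 535. Counts were scaled by TMM and tested with the quasi-likelihood functions of edgeR 4.0.16 in R 4.3.3, with group alone in the design and Benjamini-Hochberg adjustment over all 525; the design had been written for whole counts. SE was taken as the size of the log2 change over the root of its F statistic. For relative changes the library size was set to the count of the reference strand. Log ratios per library used a pseudocount of 0.5, and profiles a prior count of 2. Alternatives used DESeq2 1.42.0, limma 3.58.1, other scalings, filters and sums, and fits without each library. Figures were drawn with matplotlib 3.10.9. The fits were tested on simulated counts. Replicates of a group differed by more than sampling noise. The chi-square per degree of freedom was 2.90 to 8.82 between whole kidney libraries and 20.6 to 55.0 between nephron progenitor libraries. The fits nevertheless estimated the spread over both groups together.

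Named miRNAs were the strands of the cluster, those of other loci that share a seed or a family name, those within 50 kb, the 5 nearest in profile, the 2 largest changes on the X chromosome, and cell type markers. The hairpins around mir-106a were named outside this rule. The members and lists were chosen with earlier results of these data known. The background of strand shares over hairpins was added after seeing the data.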

Additional observations from a re-analysis of the deposited data

How the results depend on the processing

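The calls of the cluster depended little on the processing. Of 162 fits of its single strands under the alternatives, 158 kept the direction and the side of the threshold, 3 no longer passed it and 1 changed sign, that of miR-450a-1-3p without MWK2, which held 9 of its 21 counts (log2 fold change -1.35 to 0.10 without each library in turn). The count of strands past the threshold was 4 to 5 without each library in turn and under all other settings. Scaling by library totals moved the median log2 fold change of all miRNAs to 0.19 and that of the cluster to -0.48, all 11 strands staying below 0. The count of all miRNAs past the threshold was 120 of 260 with more than 10 counts in every library, since fewer were tested, and 144 to 211 without each library in turn.

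Relative to miR-322-5p, 8 to 9 strands passed without each library in turn, and 7 with more than 10 counts in every library. With the summed cluster as reference 2 did, as with miR-351-5p, a reference chosen after seeing the data. Relative to miR-351-5p the count was 1 to 4 without each library in turn; the cause was not tested. The log2 ratio of the summed level was -0.80 to -0.49 without each library in turn and -0.41 with library totals. The difference in 3p share was 6.69 to 8.73 percentage points for mir-322, 13.2 to 17.2 for mir-450b, 1.11 to 2.68 for mir-503, 0.014 to 0.11 for mir-351 and -0.41 to 0.13 for mir-450a, which changed sign without MWK2.

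With the numbers 1 and 2 as a replicate block in the 4 numbered libraries, 153 miRNAs and 5 cluster strands passed, and without the block 134 and 4, miR-503-5p being lost (adjusted p = 0.0606, edgeR). Differences between replicates 1 and 2 were almost uncorrelated between the groups across miRNAs (r = 0.04). With 1 such difference per group this does not exclude a pairing by litter, and equal numbers are not stated to mark one litter. Among the markers that missed the threshold, the log2 fold change of miR-142a-5p was 0.060 with library totals and -0.31 to 0.030 without each library in turn. That of miR-214-3p was -0.034 with the replicate block, -0.031 without it and -0.091 to 0.37 without each library in turn.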
